A study of Mus musculus with 2 samples.

Results

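The genes described here are 28 enzymes, regulators and carriers of cholesterol synthesis and fatty acid synthesis, out of 31053 genes counted in the files. They were listed by symbol and sorted by role: 7 enzymes from acetyl units to farnesyl diphosphate, 3 that make squalene and lanosterol, 8 that turn lanosterol into cholesterol, 4 regulators and carriers, and 6 enzymes of fatty acid synthesis (lipogenesis). The list was proposed with the fibroblast contrast of these same libraries known, so the values in fibroblast-like cells are a description of the genes that were picked and carry no test. The study profiled single cells other than cardiomyocytes from the hearts of mice, in a setting the title names HFpEF (heart failure in which the ejection fraction is preserved). One library came from db/+ mice, heterozygous carriers of the diabetes allele of the leptin receptor and the usual lean controls. The other came from db/db mice, which lack leptin signalling and become obese and diabetic, and which were also given 1% salt. The labels give no treatment for db/+, so genotype and salt cannot be told apart. Both libraries were made from male hearts, 4 per genotype, and in both the cardiomyocytes were filtered out and CD45-positive leukocytes were depleted with magnetic beads. Cells cannot be assigned to single animals, so each group is 1 sample and the spread between animals is unknown.

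Cells regulate many of these genes together. When sterol in the endoplasmic reticulum falls, SCAP carries the membrane-bound sterol regulatory element binding proteins (SREBPs) to the Golgi, where proteases release the part that enters the nucleus. Srebf2 encodes the form that mainly drives cholesterol synthesis and Srebf1 the form that mainly drives fatty acid synthesis. Insig1, itself an SREBP target, holds SCAP back when sterol is plentiful. SREBPs bind sterol regulatory elements and E-boxes, commonly beside a CCAAT box bound by NF-Y.

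Upstream sequences of 22 of the 28 genes were found in the RefSeq promoter table of GRCm38.p6, and 3 motifs were searched on both strands of the 250 bases before each start. The sterol regulatory element-like motif TCACNCCA was present in 3 of the 22 (Hmgcs1, Msmo1 and Srebf2) and in 4.20% of all 27025 genes of the table. The E-box CACGTG was present in 4 (Hsd17b7, Sc5d, Dhcr7 and Insig1) and in 6.86% of all genes. The CCAAT box, which reads ATTGG on the other strand, was present in 18 of 22 (81.8%) and in 37.5% of all genes. A sterol regulatory element-like motif and a CCAAT box can share letters, as can CCAAT boxes on opposite strands, and each match was counted. These matches describe letters and no binding was measured. The 6 sequences below show an example with a sterol regulatory element-like motif, 3 with an E-box, the fatty acid synthase promoter with 3 CCAAT boxes, and, for contrast, Ebp, whose ratio over all fibroblast-like cells was near 1 (1.01), though below 1 in interstitial and in endothelial-like cells. Each is printed 5′ to 3′ on the strand of the gene, with the motifs in capitals. Coordinates are of GRCm38.p6: Hmgcs1 at chr13:119690101-119690350 on the plus strand, Hsd17b7 at chr1:169969242-169969408 on the minus strand, Sc5d at chr9:42264301-42264550 on the minus strand, Insig1 at chr5:28071162-28071362 on the plus strand, Fasn at chr11:120824548-120824797 on the minus strand and Ebp at chrX:8193513-8193762 on the minus strand. Bases that the GENCODE M21 annotation places in an exon were left off, so all 6 stretches lie upstream of the gene.
Hmgcs1: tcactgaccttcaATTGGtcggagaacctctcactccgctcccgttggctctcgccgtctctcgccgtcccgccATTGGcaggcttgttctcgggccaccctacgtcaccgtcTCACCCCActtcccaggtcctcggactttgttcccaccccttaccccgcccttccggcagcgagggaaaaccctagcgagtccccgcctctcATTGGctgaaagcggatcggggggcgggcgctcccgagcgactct
Hsd17b7: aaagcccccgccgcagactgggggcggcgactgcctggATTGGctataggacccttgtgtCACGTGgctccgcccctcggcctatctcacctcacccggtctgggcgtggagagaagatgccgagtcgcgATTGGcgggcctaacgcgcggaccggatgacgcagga
Sc5d: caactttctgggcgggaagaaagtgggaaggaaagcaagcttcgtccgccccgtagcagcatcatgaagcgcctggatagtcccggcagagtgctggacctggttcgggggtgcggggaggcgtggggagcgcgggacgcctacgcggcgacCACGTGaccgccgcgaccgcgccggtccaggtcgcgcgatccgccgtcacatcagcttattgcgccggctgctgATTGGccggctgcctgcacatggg
Insig1: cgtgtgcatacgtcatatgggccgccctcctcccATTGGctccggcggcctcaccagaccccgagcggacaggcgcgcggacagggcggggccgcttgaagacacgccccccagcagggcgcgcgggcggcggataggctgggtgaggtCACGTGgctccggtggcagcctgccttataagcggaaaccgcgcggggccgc
Fasn: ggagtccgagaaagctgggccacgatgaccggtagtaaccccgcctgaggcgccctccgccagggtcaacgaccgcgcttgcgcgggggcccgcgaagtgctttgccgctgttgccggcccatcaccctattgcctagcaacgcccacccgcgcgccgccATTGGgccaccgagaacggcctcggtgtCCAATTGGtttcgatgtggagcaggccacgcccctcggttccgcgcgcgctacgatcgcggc
Ebp: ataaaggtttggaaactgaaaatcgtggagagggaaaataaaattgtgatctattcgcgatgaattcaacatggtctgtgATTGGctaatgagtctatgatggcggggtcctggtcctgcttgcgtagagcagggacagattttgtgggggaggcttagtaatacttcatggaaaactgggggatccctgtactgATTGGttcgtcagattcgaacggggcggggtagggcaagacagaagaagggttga

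The libraries held 5676 (db/+) and 4751 (db/db and salt) barcodes with 44935235 and 40974634 unique molecular identifiers (UMIs, each standing for 1 captured transcript). After filtering, 4873 and 4099 barcodes remained, and 7 barcode sequences occurred in both libraries, 5 of them among those kept. Barcodes were classed from marker genes and are called fibroblast-like (1148 and 1038 cells), endothelial-like (2932 and 2501 cells) and so on. The median fibroblast-like cell held 9459 UMIs in db/+ and 11922.5 in db/db and salt, and the median endothelial-like cell 5167.5 and 5322. Levels are given as UMIs of the gene scaled to CPM, the usual unit of counts relative to the total UMIs of the class, which takes out the summed depth. The 8 fibroblast markers summed to 49736 and 55309 CPM in fibroblast-like cells, against 194 and 200 CPM for 8 endothelial markers. Leukocyte markers stood there at 1.90 and 2.21 CPM, with 2 of 8 at 0 in both libraries. The same markers set the classes, so these sums are no check on them. Intervals are exact 95% intervals and cover counting error only. They leave out the spread between cells and between animals. Fewer cells with a transcript and fewer transcripts per cell cannot be told apart in a class sum, so the distribution over cells is given further on.

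In fibroblast-like cells, the 28 genes together were higher in the db/db and salt library than in the db/+ library. Their summed level was 719 CPM in db/+ and 1157 CPM in db/db and salt, a ratio of 1.61 (1.56 to 1.65). The 18 sterol synthesis enzymes stood at 279 and 492 CPM, a ratio of 1.77 (1.69 to 1.84), and the 6 lipogenesis enzymes at 323 and 474 CPM, a ratio of 1.46 (1.41 to 1.53). Of the 28 genes, 22 passed a filter of 10 CPM as the mean of both libraries. Of these, 12 were at least 1.5-fold higher in db/db and salt on the scale of log2(CPM + 10), and 0 were 1.5-fold lower. Among all 8627 genes that passed the filter, 0.603% were that much higher and 0.904% that much lower, and nothing is read from the contrast with the members because the list was drawn up with these values known. The median log2 ratio was 0.66 over the 22 members and 0.026 over all genes that passed. Stard4 lay just inside the 1.5-fold limit at a log2 ratio of 0.64, and Sc5d just outside at 0.58.

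**Figure D1:**
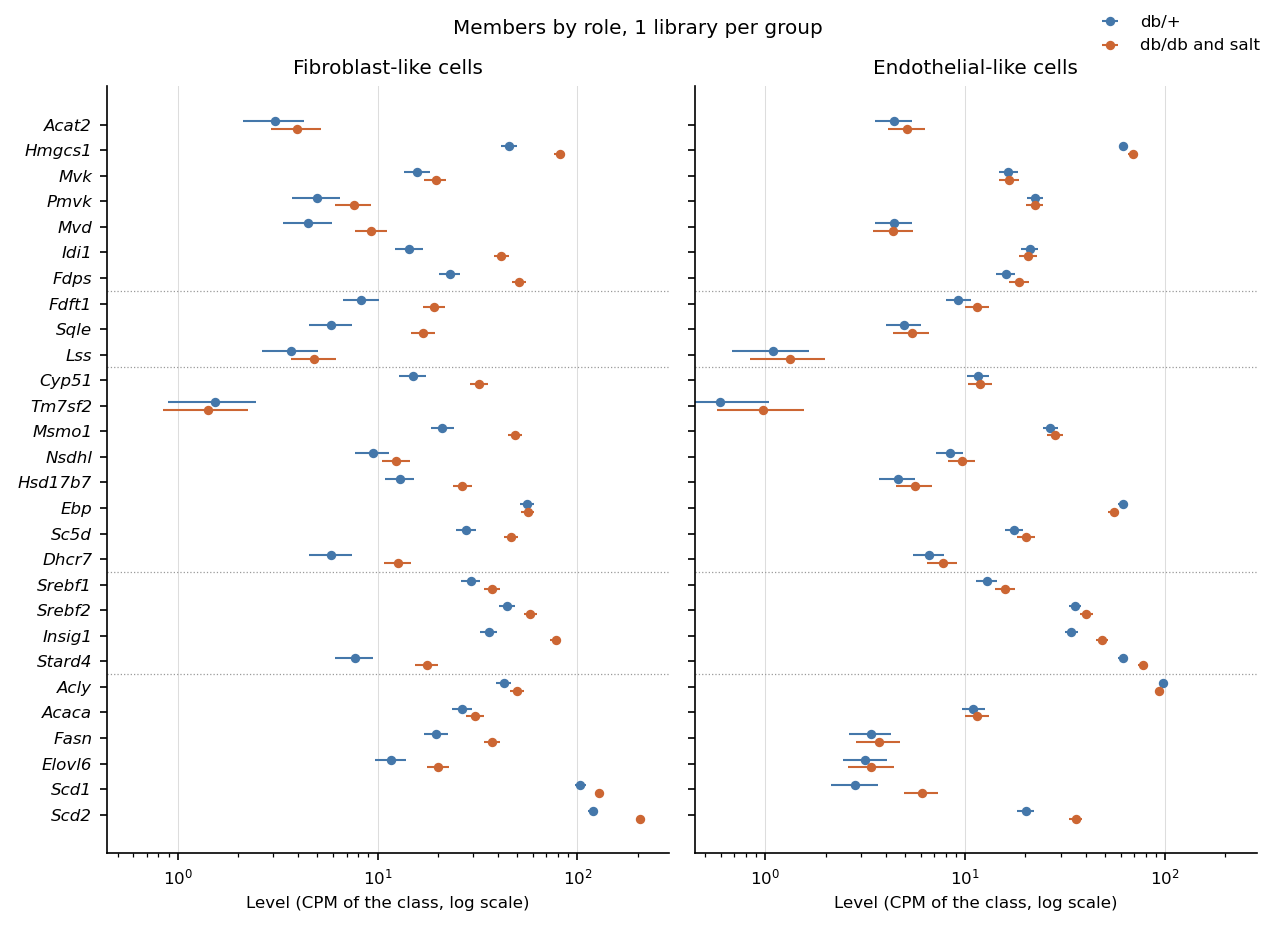
Level of each of the 28 genes in fibroblast-like (left) and endothelial-like (right) cells, in CPM of the class on a log axis, with 1 point per library and exact 95% intervals for counting error; dotted lines separate the roles. In fibroblast-like cells most db/db and salt points lie to the right of the db/+ points (Idi1 at 14.4 and 41.7 CPM), while in endothelial-like cells most pairs lie close together (Idi1 at 21.0 and 20.6 CPM).

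In the early part of the pathway, from acetyl units to farnesyl diphosphate, the difference was largest at Idi1, the isomerase that makes dimethylallyl diphosphate. Idi1 had 160 UMIs (14.4 CPM) in db/+ and 528 UMIs (41.7 CPM) in db/db and salt, a ratio of 2.89 (2.41 to 3.47). Fdps, which joins the isoprene units to farnesyl diphosphate, stood at 22.9 and 51.1 CPM, a ratio of 2.23 (1.92 to 2.59). Hmgcs1, the synthase that makes HMG-CoA, stood at 45.5 CPM (504 UMIs) and 81.6 CPM (1034 UMIs), a ratio of 1.79 (1.61 to 2.001). For these 3 the counting intervals of the libraries were apart. Mvd, the decarboxylase before Idi1, was low, at 4.51 and 9.32 CPM, with a ratio of 2.06 (1.47 to 2.93). Both kinases of the mevalonate step differed less: Mvk stood at 15.8 and 19.5 CPM, a ratio of 1.23 (1.01 to 1.51), and Pmvk at 4.96 and 7.58 CPM, a ratio of 1.53 (1.09 to 2.17). Acat2, the cytosolic thiolase at the entry, had only 34 and 50 UMIs (3.07 and 3.95 CPM) and its ratio of 1.29 (0.82 to 2.05) was not distinguishable from 1 at this depth. The enzymes of this stretch therefore did not share a ratio, and the thiolase and mevalonate kinase lay below the others.

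At the step that commits the chain to sterols, Fdft1 (squalene synthase) stood at 8.30 CPM in db/+ and 19.2 CPM in db/db and salt, a ratio of 2.31 (1.81 to 2.97). Sqle (squalene epoxidase, a rate-controlling oxygenase) stood at 5.87 and 16.9 CPM, from 65 and 214 UMIs, a ratio of 2.88 (2.17 to 3.86), close to that of Idi1. Lss, the cyclase that closes the rings to lanosterol, had 41 and 61 UMIs (3.70 and 4.82 CPM) and a ratio of 1.30 (0.86 to 1.98), which includes 1.

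Of the 8 enzymes between lanosterol and cholesterol, 5 had a ratio above 1.5. Msmo1, the methyl sterol oxidase, stood at 21.1 and 48.7 CPM, a ratio of 2.31 (1.98 to 2.69). Cyp51, the lanosterol demethylase, stood at 15.1 and 32.2 CPM, a ratio of 2.14 (1.78 to 2.58). Hsd17b7, a sterol ketoreductase of this stretch, stood at 12.9 and 26.5 CPM, a ratio of 2.06 (1.69 to 2.52). These enzymes thus lay near one another, while Nsdhl, a sterol dehydrogenase, stood at 9.48 and 12.4 CPM with a ratio of 1.31 (1.02 to 1.69). Dhcr7, the last reductase of one branch, stood at 5.87 and 12.6 CPM, a ratio of 2.15 (1.60 to 2.92), and Sc5d, the desaturase before it, at 27.8 and 46.3 CPM, a ratio of 1.67 (1.45 to 1.92). Ebp, the sterol isomerase, was the exception among the better covered enzymes, with 620 and 713 UMIs, 56.0 and 56.3 CPM, and a ratio of 1.01 (0.90 to 1.12). Tm7sf2, one of the sterol reductases of this stretch, had 17 and 18 UMIs (1.53 and 1.42 CPM), too few to tell a difference.

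Among the regulators, the transcripts of both SREBP genes differed less than those of most enzymes. Srebf2 stood at 44.6 and 58.1 CPM, a ratio of 1.30 (1.16 to 1.46), and Srebf1 at 29.2 and 37.6 CPM, a ratio of 1.29 (1.11 to 1.48). Insig1 stood at 35.9 CPM (398 UMIs) and 77.8 CPM (986 UMIs), a ratio of 2.17 (1.93 to 2.44), in the range of the enzymes. Stard4, a soluble carrier that moves sterol between membranes, stood at 7.67 and 17.6 CPM, a ratio of 2.30 (1.78 to 2.98). The intervals of Insig1 and Stard4 therefore lie above those of both SREBP genes.

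In lipogenesis the genes divided. Fasn, the fatty acid synthase, stood at 19.7 and 37.6 CPM, a ratio of 1.91 (1.62 to 2.25), Elovl6, the elongase that follows it, at 11.6 and 20.1 CPM, a ratio of 1.72 (1.39 to 2.15), and Scd2, a desaturase that makes monounsaturated fatty acids, at 119 and 207 CPM, a ratio of 1.73 (1.62 to 1.85). Its paralogue Scd1 stood at 104 and 129 CPM, a ratio of 1.24 (1.15 to 1.34), below the interval of Scd2. The 2 genes are neighbours on chromosome 19 and alike in sequence, and how reads fitting both were treated is not recorded in the sources, so their split is uncertain. The enzymes that feed carbon into the pathway differed little: Acly, the citrate lyase, stood at 42.7 and 49.98 CPM, a ratio of 1.17 (1.04 to 1.32), and Acaca, the acetyl-CoA carboxylase, at 26.5 and 30.7 CPM, a ratio of 1.16 (0.99 to 1.35). Over all 28 genes in fibroblast-like cells, 27 had a ratio above 1 (26 under TMM scaling), for 23 of them the interval lay wholly above 1, and for 0 it lay wholly below. How many of all genes had such intervals was not counted. Nothing is read from these counts, as the list was picked with these values known.

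Other cell types' markers were compared with these differences. Adipocyte markers were at 0.81 CPM (9 UMIs) in db/+ and 1.58 CPM (20 UMIs) in db/db and salt in fibroblast-like cells, with 6 of 8 markers at 0 in both libraries. Car3 gave 8 and 20 of these UMIs. In fibroblast-like cells with no adipocyte, cardiomyocyte or leukocyte marker UMI (1034 and 883 cells), 26 of 28 members had a positive log2 ratio, against 27 in all. This setting removed markers of other cell types as well, so the part of adipocyte transcripts alone was not tested. Markers of smooth muscle were lower in db/db and salt, at 171 and 121 CPM, and endothelial markers were at similar levels. Median mitochondrial shares were 4.11% and 3.99%. Cells of the db/db and salt library were deeper, so fibroblast-like cells of both libraries were also put into 3 depth bins of about equal size. The ratio of the summed members was 1.88 (1.77 to 1.99) in the shallowest bin, 1.59 (1.51 to 1.67) in the middle bin and 1.53 (1.47 to 1.60) in the deepest, so it was above 1 at each depth and larger in the shallowest cells.

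Fibroblast-like cells were divided by marker genes into interstitial (412 and 442 cells), adventitial (232 and 218) and matrix-activated (206 and 145) subsets, with 298 and 233 cells in none. Of all 2186 fibroblast-like cells, 483 (22.1%) lay near a subset limit. The summed members stood at 680 CPM in db/+ and 1249 CPM in db/db and salt in interstitial cells, a ratio of 1.84 (1.75 to 1.93). In adventitial cells the sum was 775 and 1229 CPM, a ratio of 1.59 (1.501 to 1.68), and in matrix-activated cells 747 and 989 CPM, a ratio of 1.32 (1.24 to 1.41). The 3 intervals of the ratio were apart, but they treat every UMI as an independent count. In cells thinned to 5000 UMIs, as described below, the variance of member UMIs over their mean exceeded what independent counts give. It was 2.34 and 5.28 in interstitial, 1.92 and 5.17 in adventitial and 1.59 and 5.40 in matrix-activated cells. The intervals are therefore too narrow, and whether the subsets differ was not tested. Interstitial cells had the lowest sum of the 3 subsets in db/+ and, with adventitial cells close to them, the highest in db/db and salt.

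**Figure D2:**
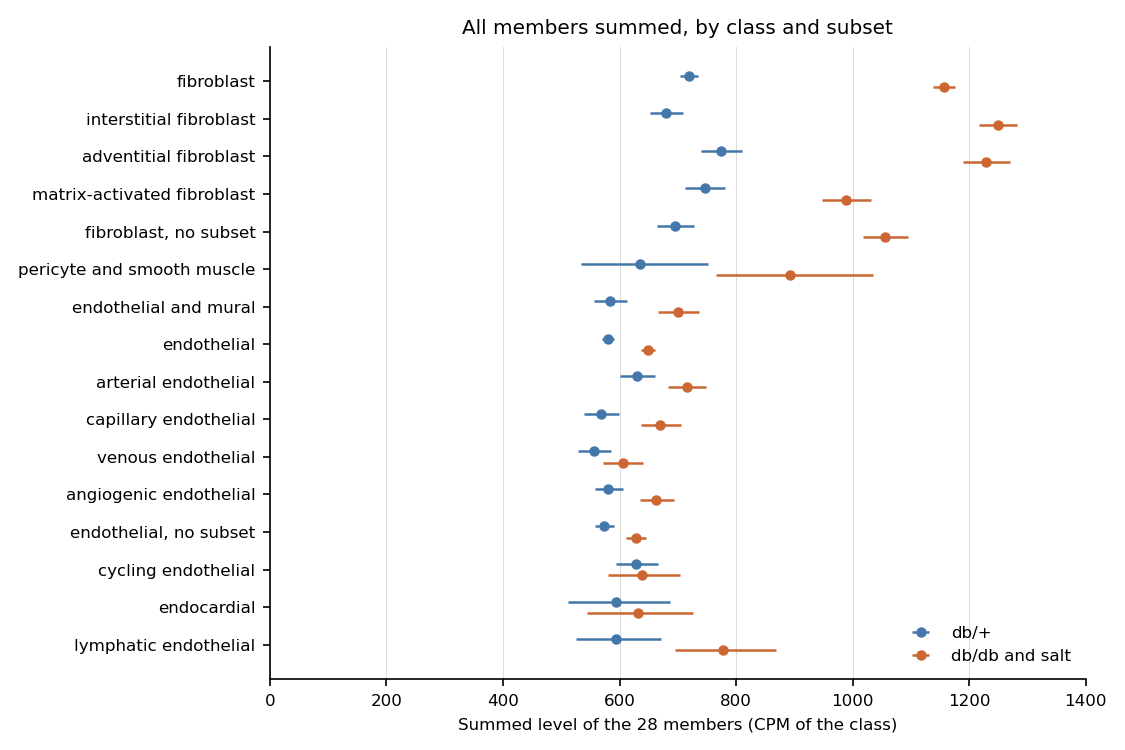
Summed level of the 28 genes in CPM of the class for each class and subset, with 1 point per library and exact 95% intervals for counting error. Interstitial fibroblast-like cells go from 680 CPM in db/+ to 1249 CPM in db/db and salt, and endothelial-like cells from 580 to 649 CPM.

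Single genes were also set side by side across the subsets. Of the 26 members with at least 20 UMIs in each subset over both libraries, 17 had their highest ratio in interstitial cells, 8 in adventitial cells and 1 in matrix-activated cells, and 17 had their lowest ratio in matrix-activated cells. These are separate counts and do not give the number of genes in which the subsets had the order of the sums. At least 1.5-fold higher on the log2(CPM + 10) scale were 13 of 22 measured members in interstitial cells (0.936% of all genes), 9 of 21 in adventitial cells (1.24% of all genes) and 3 of 21 in matrix-activated cells (1.16% of all genes). In each subset 0 members were 1.5-fold lower, against 1.24%, 1.25% and 1.33% of all genes. These cells are part of the contrast the list was chosen on, so nothing is read from these counts. Idi1 had 34 and 243 UMIs in interstitial cells, 9.97 and 51.6 CPM, a ratio of 5.18 (3.60 to 7.65). Its ratio was 2.49 (1.69 to 3.76) in adventitial and 1.89 (1.28 to 2.80) in matrix-activated cells. Squalene synthase Fdft1 stood at 6.16 and 24.2 CPM in interstitial cells, a ratio of 3.93 (2.45 to 6.59), but at 11.1 and 12.4 CPM in matrix-activated cells, a ratio of 1.12 (0.63 to 1.99). For Hmgcs1 the interstitial levels were 40.2 and 105 CPM, a ratio of 2.61 (2.15 to 3.17), and the matrix-activated levels 50.9 and 68.1 CPM, a ratio of 1.34 (1.05 to 1.71). For these 3 genes the interstitial level was the lowest of the subsets in db/+ and the highest in db/db and salt.

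By the rule for named genes, the highest ratios in interstitial cells were those of Idi1, Fdft1 and Pmvk, the last from 7 and 34 UMIs at 3.52 (1.53 to 9.40), and the lowest was Ebp at 0.80 (0.66 to 0.96). In adventitial cells the highest were Sqle at 4.30 (2.08 to 9.97), from 9 and 47 UMIs, Fdps at 2.61 (1.90 to 3.65) and Idi1, and the lowest was Pmvk at 0.86 (0.47 to 1.54). In matrix-activated cells they were Pmvk at 2.35 (1.06 to 5.60), Stard4 at 2.17 (1.15 to 4.25) and Cyp51 at 2.04 (1.36 to 3.099), and the lowest was Mvd at 0.82 (0.34 to 1.92). Lower counts in the subsets make single ratios of low genes imprecise, as the width of these intervals shows. Cyp51 and Hsd17b7 had similar ratios in all 3 subsets: 2.34, 2.001 and 2.04 for Cyp51, and 2.66, 2.03 and 2.02 for Hsd17b7, in interstitial, adventitial and matrix-activated cells. Scd1 showed another order, with 70.7 and 92.1 CPM in interstitial, 129 and 182 CPM in adventitial and 128 and 128 CPM in matrix-activated cells. Scd1 was thus lowest in interstitial cells in both libraries, and its ratio in matrix-activated cells was 1.00 (0.85 to 1.18).

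**Figure D3:**
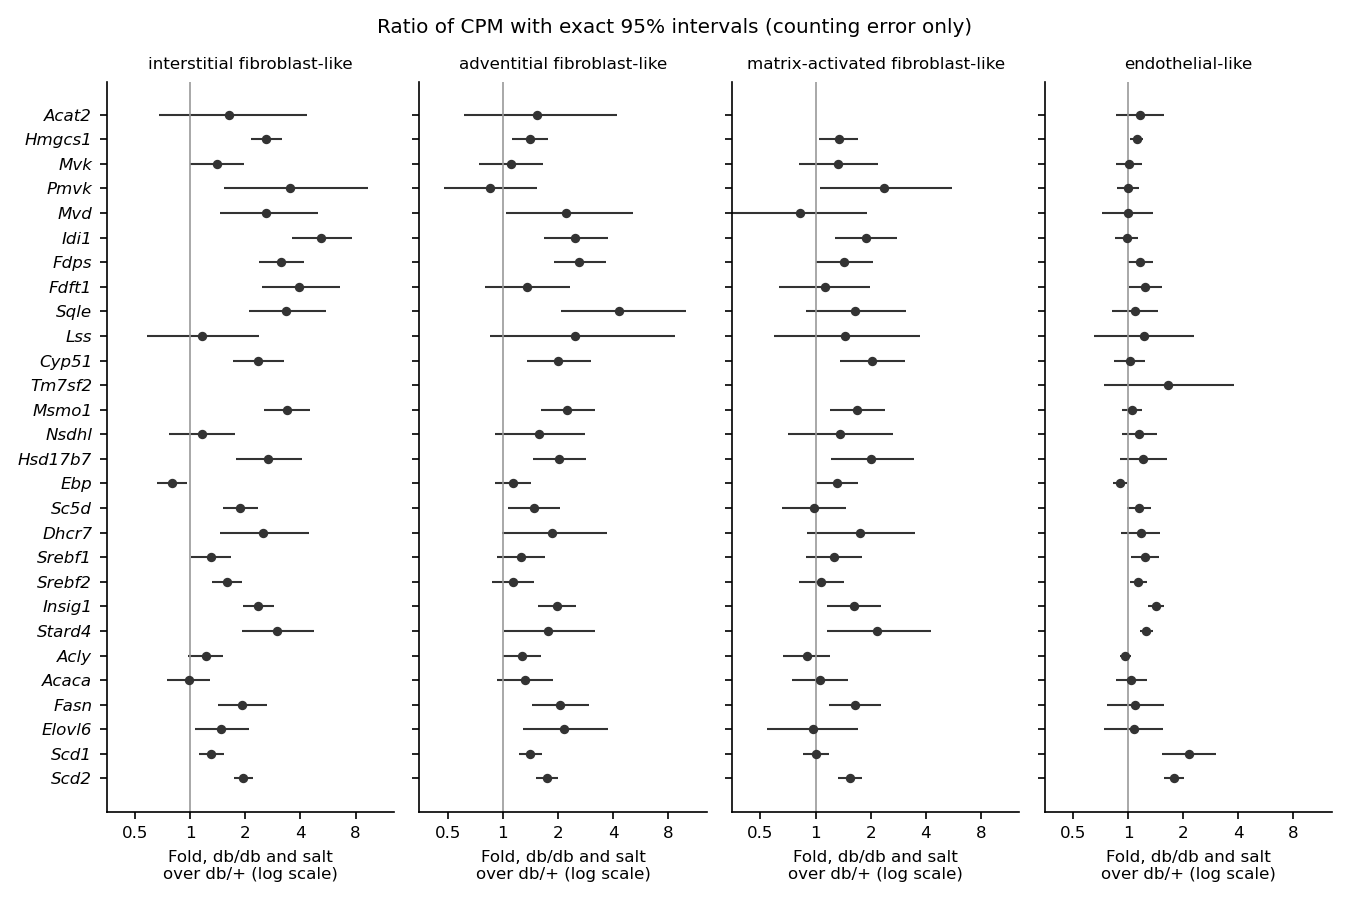
Ratio of each gene's CPM in db/db and salt over db/+ on a log axis in 3 fibroblast-like subsets and in endothelial-like cells, with exact 95% intervals for counting error, for genes with at least 20 UMIs in both libraries together. Ratios lie furthest right in interstitial cells (Idi1 at 5.18) and close to 1 in endothelial-like cells (Idi1 at 0.98).

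The markers that define the matrix-activated subset were lower in the db/db and salt library over all fibroblast-like cells, at 1333 and 905 CPM, and within that subset, at 4845 and 3980 CPM. The interstitial markers differed little within the interstitial subset, at 3084 and 3092 CPM. Adipocyte markers in matrix-activated cells had 8 and 19 UMIs, with 6 of 8 at 0, against 1 and 1 UMI in interstitial and 0 and 0 UMIs in adventitial cells. The part of these transcripts in the subsets' ratios was not tested.

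The higher sum in fibroblast-like cells of db/db and salt was unevenly spread over cells. To compare cells of unequal depth, each cell was thinned at random to 5000 UMIs, which left 1041 and 991 fibroblast-like cells and left out 107 and 47 shallower ones. The mean number of member UMIs was 3.61 per cell in db/+ and 5.81 in db/db and salt, while the median was 3 and 4. The level exceeded by the top 10% of cells was 7 and 12 UMIs, and the highest cell had 24 and 45. Cells with at least 10 member UMIs were 3.75% of the db/+ cells (2.68 to 5.09%) and 15.6% of the db/db and salt cells (13.4 to 18.1%). The variance divided by the mean was 2.24 and 4.97, where independent counting gives 1. Thinning endothelial-like cells in the same way left 1510 and 1343 cells and left out 1422 and 1158 shallower ones. The endothelial-like cells kept had a mean of 2.92 and 3.23, a variance over mean of 1.17 and 1.31, and 0.60% and 0.89% of cells with at least 10 member UMIs. The upper tail of fibroblast-like cells was thus longer in the db/db and salt library. In endothelial-like cells of at least 5000 UMIs there was hardly a tail in either library.

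**Figure D4:**
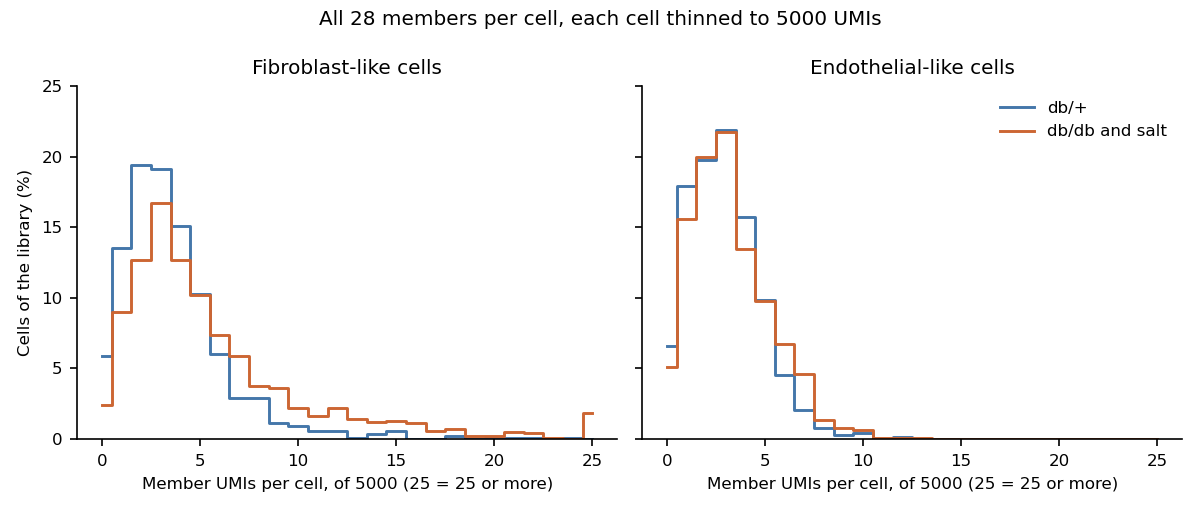
Share of cells (%) by the number of member UMIs in each cell after thinning to 5000 UMIs, for fibroblast-like (left) and endothelial-like (right) cells, with 1 line per library and cells with 25 or more pooled at 25. In fibroblast-like cells the db/db and salt line has the heavier right tail, with 15.6% of cells at 10 or more against 3.75% in db/+.

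To see whether different enzymes were high in the same cells, the 18 sterol synthesis enzymes were put alternately, in pathway order, into sets A and B of 9 genes each. Set A holds Acat2, Mvk, Mvd, Fdps, Sqle, Cyp51, Msmo1, Hsd17b7 and Sc5d, and set B holds Hmgcs1, Pmvk, Idi1, Fdft1, Lss, Tm7sf2, Nsdhl, Ebp and Dhcr7. Cells were grouped by their UMIs of set A and the level of set B was read, so the genes read had no part in the grouping. In db/+ fibroblast-like cells set B had a mean of 0.58 UMIs (0.52 to 0.65) per cell with 0 UMIs of set A and 3.03 (2.45 to 3.71) in cells with 4 or more. In db/db and salt the same means were 0.69 (0.62 to 0.77) and 3.77 (3.41 to 4.15). The enzymes of both sets were therefore high in the same fibroblast-like cells, in both libraries. In endothelial-like cells set B differed less with set A. In db/+ its mean was 0.94 UMIs (0.88 to 1.01) in cells with 0 of set A, 1.09 (0.91 to 1.29) in the 122 cells with 2 and 1.25 (0.70 to 2.06) in the 12 cells with 4 or more. In db/db and salt it was 0.93 (0.86 to 0.995) with 0, 1.30 (1.11 to 1.51) in the 129 cells with 2 and 1.22 (0.61 to 2.19) in the 9 cells with 4 or more. The intervals for 0 and 2 UMIs were apart in db/db and salt and overlapped in db/+.

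The libraries were compared both in the share of fibroblast-like cells in the high group and within groups. Cells with 4 or more UMIs of set A were 31 of 1041 in db/+ (2.98%, 2.03 to 4.20%) and 107 of 991 in db/db and salt (10.8%, 8.93 to 12.9%), and these held 12.1% and 32.9% of all set B UMIs. Over all cells set B was 1.66-fold higher (1.52 to 1.82) in db/db and salt. Among cells with 0 UMIs of set A it was 1.18-fold higher (1.01 to 1.38), among those with 1 to 3 it was 1.49-fold higher (1.30 to 1.72), and among those with 4 or more 1.24-fold higher (0.99 to 1.57). With the sets exchanged, set A was 1.96-fold higher (1.79 to 2.15) over all cells, 1.31-fold (1.10 to 1.56) among cells with 0 UMIs of set B and 1.55-fold (1.24 to 1.95) among those with 4 or more. Among cells with 1 to 3 UMIs of set B it was 1.68-fold (1.47 to 1.93), which overlaps the interval over all cells. Within each group of cells the ratio was smaller than over all cells. Because both sets go together within cells, grouping by one lowers the ratio of the other inside groups. This outcome thus follows in large part from the grouping, and nothing is read from it. With 5000 UMIs a cell in which these enzymes are moderately high can show 0, so the groups overlap in their true level.

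**Figure D5:**
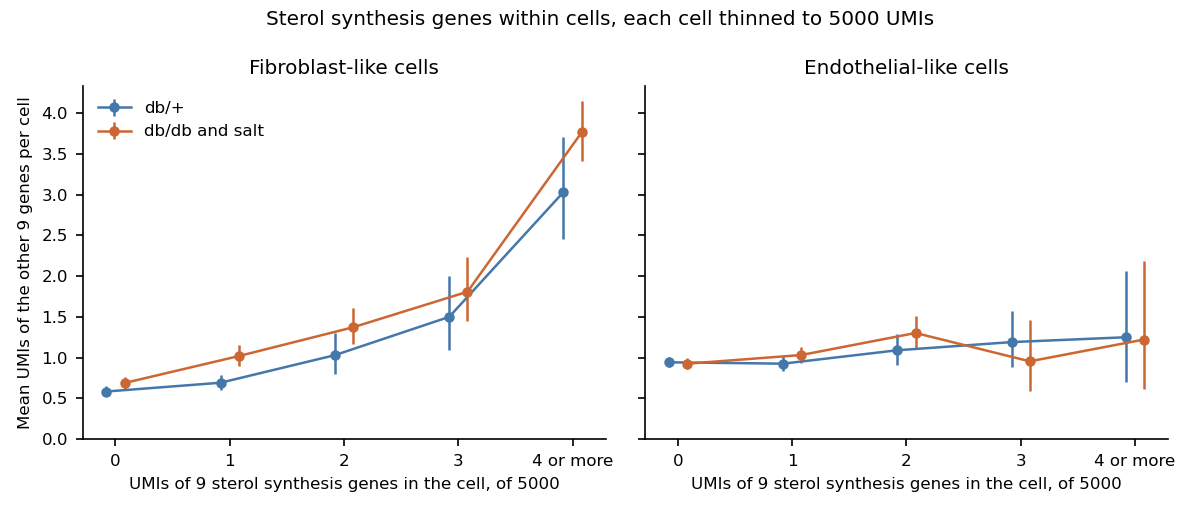
Mean UMIs of set B per cell (vertical axis, 9 sterol synthesis genes) by the cell's UMIs of set A (horizontal axis, the other 9), after thinning to 5000 UMIs, with exact 95% intervals for counting error and 1 line per library. In fibroblast-like cells (left) the mean goes from 0.58 to 3.03 in db/+ and from 0.69 to 3.77 in db/db and salt, and in endothelial-like cells (right) it stays between 0.93 and 1.30.

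Genes outside both sets followed them unequally. Insig1 stood at 29.5 CPM in db/+ cells with 0 UMIs of set A and 103 CPM in those with 4 or more, and at 41.4 and 219 CPM in db/db and salt. Scd2 stood at 110 and 232 CPM in db/+ and at 169 and 441 CPM in db/db and salt. Scd1 stood at 102 and 83.9 CPM in db/+, the latter from 13 UMIs, and at 123 and 146 CPM in db/db and salt. Its counting intervals overlapped in both libraries, so it was not seen to follow the sterol enzymes as Scd2 did, whose intervals were apart. A list of 8 efflux genes and targets of the liver X receptors, which sense oxysterols and which act opposite to SREBP2, went the other way, from 3436 to 1884 CPM in db/+ and from 4302 to 1916 CPM in db/db and salt. Its sum is dominated by Apoe, at 2682 and 2835 CPM over all fibroblast-like cells. Genes of SREBP processing, such as Scap and the proteases Mbtps1 and Mbtps2, stood at 365 and 406 CPM in db/+ and at 397 and 350 CPM in db/db and salt. The counting intervals of that list overlapped in both libraries.

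Depth and marker levels of the cells with 4 or more UMIs of set A were compared with the rest. Their median depth before thinning was 8874 UMIs in db/+ and 12668 in db/db and salt, against 9860 and 12061.5 in the remaining cells. Their median mitochondrial share was 4.19% and 3.98%, against 4.11% and 3.98%. They held 0 adipocyte marker UMIs in both libraries, against 2 and 7 in the 1010 and 884 remaining cells. These are too few to compare. In the high cells proliferation markers averaged 0 and 0.047 UMIs per cell, against 0.035 and 0.028 in the rest. By subset, the high cells were 2.99% of interstitial, 2.29% of adventitial and 3.02% of matrix-activated cells in db/+, with overlapping intervals. In db/db and salt they were 13.3% (10.1 to 16.9%), 10.4% (6.62 to 15.3%) and 6.94% (3.38 to 12.4%), again with intervals that overlap.

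In endothelial-like cells, which were more numerous but shallower, most of these genes stood at nearly the same level in both libraries. The sum of all 28 was 580 and 649 CPM, a ratio of 1.12 (1.09 to 1.15), and that of the 18 sterol enzymes 299 and 314 CPM, a ratio of 1.05 (1.01 to 1.09). Of the 28 genes, 17 passed the filter of 10 CPM, 1 of them (Scd2) was at least 1.5-fold higher and 0 were lower, against 0.453% and 1.46% of all 8176 genes that passed. Scd2, at a log2 ratio of 0.60, was near the 1.5-fold limit, and the count was 0 under TMM scaling, with a stricter class margin, and in cells with no fibroblast marker UMI, where Scd2 was at 0.47. The median log2 ratio was 0.13, and 0.057 over all genes that passed. For 8 genes the interval of the ratio lay above 1, and for Ebp it lay below, at 61.4 and 55.4 CPM and a ratio of 0.90 (0.83 to 0.98). The share of all genes with such intervals was not computed, so nothing is read from this count.

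Enzyme by enzyme, Idi1 stood at 21.0 and 20.6 CPM in endothelial-like cells, a ratio of 0.98 (0.85 to 1.13), and Sqle at 4.94 and 5.41 CPM, a ratio of 1.09 (0.82 to 1.46). Hmgcs1 stood at 61.9 and 68.8 CPM, Mvk at 16.4 and 16.6, Pmvk at 22.3 and 22.2, Mvd at 4.40 and 4.37, Fdps at 15.9 and 18.6 and Acat2 at 4.40 and 5.12 CPM. None of these 6 differed by more than 1.2-fold, though the interval of the ratio of Hmgcs1 lay above 1. Fdft1 stood at 9.25 and 11.5 CPM, Lss at 1.09 and 1.32, Cyp51 at 11.6 and 11.8, Msmo1 at 26.6 and 28.1, Hsd17b7 at 4.60 and 5.58 and Nsdhl at 8.36 and 9.61 CPM. Sc5d stood at 17.6 and 20.1 CPM, Dhcr7 at 6.58 and 7.71 CPM and Tm7sf2 at 0.59 and 0.98 CPM, the last from 12 and 17 UMIs. Except for Fdft1, with a ratio of 1.24 (1.01 to 1.53), the interval of each of these 9 includes 1.

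Besides Fdft1 and Hmgcs1, the exceptions in endothelial-like cells lay among the regulators and desaturases. Insig1 stood at 33.9 and 48.3 CPM, a ratio of 1.42 (1.28 to 1.58), and Stard4 at 61.4 and 77.3 CPM, a ratio of 1.26 (1.17 to 1.36). Scd2 stood at 20.0 and 35.6 CPM, a ratio of 1.78 (1.57 to 2.02), and Scd1 at 2.82 and 6.04 CPM, a ratio of 2.14 (1.54 to 3.01). Srebf1 stood at 12.8 and 15.8 CPM and Srebf2 at 35.4 and 40.3 CPM. Acly stood at 97.1 and 93.6 CPM, Acaca at 11.0 and 11.4, Fasn at 3.36 and 3.68 and Elovl6 at 3.16 and 3.39 CPM, so that in these cells Scd1 and Scd2 stood apart from the other 4 lipogenesis enzymes. Fibroblast markers in endothelial-like cells were also higher in db/db and salt, at 87.2 and 154 CPM, for 8 of 8 markers. These were 0.18% and 0.28% of their level in fibroblast-like cells, a share that the class rule itself limits. Scd2 stood at 16.8% and 17.2% and Scd1 at 2.72% and 4.69% of theirs. The part of fibroblast transcripts in the ratios of Scd1 and Scd2 was not tested. In endothelial-like cells without any UMI of the fibroblast markers (1729 and 957 cells), the log2 ratio on the CPM + 10 scale was 0.47 (0.24 to 0.70) for Scd2, against 0.60 in all, 0.37 (0.17 to 0.57) for Insig1, against 0.41, and 0.30 (0.06 to 0.65) for Scd1, against 0.32.

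Endothelial subsets were alike in the summed members. The ratio was 1.18 (1.09 to 1.27) in capillary, 1.14 (1.06 to 1.21) in arterial, 1.09 (1.01 to 1.17) in venous and 1.14 (1.07 to 1.21) in angiogenic endothelial-like cells, and these intervals overlap. Of all 5433 endothelial-like cells, 1507 (27.7%) lay near a subset limit. Arterial cells differed in the level of the desaturases: Scd2 stood at 44.9 and 88.1 CPM there, against 12.2 and 25.4 in capillary, 23.4 and 28.3 in venous and 17.3 and 32.0 CPM in angiogenic cells. Scd1 had 36 and 65 UMIs in arterial cells (13.5 and 25.9 CPM), of 57 and 105 UMIs in all endothelial-like cells. Most Scd1 UMIs of the endothelial-like class were thus in the arterial subset. Insig1 stood at 40.4 and 62.4 CPM in capillary, 24.7 and 39.1 in arterial, 37.9 and 46.9 in venous and 27.9 and 49.1 CPM in angiogenic cells, higher in db/db and salt in each, with a ratio interval in venous cells (0.92 to 1.66) that includes 1. At least 1.5-fold higher on the log2(CPM + 10) scale were 1 of 17 measured members in capillary (1.46% of all genes), 2 of 18 in arterial (0.908%), 0 of 16 in venous (1.57%) and 2 of 17 in angiogenic cells (0.817%). Members 1.5-fold lower numbered 0 in each, against 1.66%, 1.45%, 2.28% and 1.37% of all genes.

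Among the members with at least 20 UMIs in a subset, the highest 3 ratios and the lowest were these. Capillary cells had Scd2 at 2.08 (1.31 to 3.36), Fdft1 at 1.78 (0.9998 to 3.24) and Cyp51 at 1.73 (0.97 to 3.15), and at the low end Pmvk at 0.87 (0.58 to 1.30). Arterial cells had Scd2 at 1.96 (1.56 to 2.47), Scd1 at 1.92 (1.26 to 2.98) and Hsd17b7 at 1.89 (0.79 to 4.86), and at the low end Acat2 at 0.71 (0.29 to 1.69). In both, only the desaturases among these 4 had intervals clear of 1. Venous cells had Dhcr7 at 1.83 (0.96 to 3.56), Msmo1 at 1.62 (1.11 to 2.39) and Srebf1 at 1.57 (0.95 to 2.59), with Acat2 lowest at 0.42 (0.14 to 1.08). Angiogenic cells had Scd2 at 1.85 (1.34 to 2.57), Insig1 at 1.76 (1.36 to 2.27) and Fasn at 1.61 (0.75 to 3.52), with Sqle lowest at 0.80 (0.41 to 1.52).

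Setting both main classes side by side, the ratio of 15 genes was higher in fibroblast-like than in endothelial-like cells with intervals apart, and that of 1, Scd1, was higher in endothelial-like cells. For the other 12 the intervals overlap. The difference between the classes was not tested, because each rests on 1 library per group. Intervals apart were not counted over all genes, so the 15 is not read as particular to this list. In db/+ the level of Idi1 was lower in fibroblast-like than in endothelial-like cells (0.69-fold), and in db/db and salt it was 2.02-fold higher. Hmgcs1 (0.74-fold and 1.19-fold), Msmo1 (0.79-fold and 1.74-fold), Fdft1 (0.90-fold and 1.67-fold) and Dhcr7 (0.89-fold and 1.64-fold) were likewise lower in fibroblast-like cells in db/+ and higher in db/db and salt, as were Mvk (0.96-fold and 1.18-fold) and Ebp (0.91-fold and 1.02-fold) by small margins. Stard4 remained the most endothelial of the 28 in both libraries, at 0.13-fold and 0.23-fold, and Scd1 the most fibroblast, at 36.8-fold and 21.3-fold.

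The smaller classes held few UMIs. In pericyte-like and smooth muscle-like cells together (53 and 45 cells) the summed members stood at 636 and 892 CPM, from 136 and 175 UMIs, a ratio of 1.404 (1.12 to 1.77). Only 4 members had at least 20 UMIs there, with Scd2 at a ratio of 2.03 (1.02 to 4.20), Msmo1 at 1.64 (0.62 to 4.62), Hmgcs1 at 1.27 (0.55 to 3.01) and Srebf2 at 0.57 (0.24 to 1.30). A further 198 and 135 barcodes carried both endothelial and mural markers and had deep counts (median 13911.5 and 14085 UMIs). In these the sum was 584 and 700.5 CPM, higher in db/db and salt with a ratio interval of 1.12 to 1.29, led by Idi1 at 1.89 (1.33 to 2.70), Elovl6 at 1.86 (0.80 to 4.47) and Cyp51 at 1.83 (1.04 to 3.30), with Dhcr7 lowest at 0.57 (0.24 to 1.23). In endocardial-like cells (42 and 28) the ratio was 1.06 (0.86 to 1.31), in lymphatic endothelial-like cells (26 and 30) 1.31 (1.11 to 1.54), and in cycling endothelial-like cells (116 and 35) 1.02 (0.91 to 1.14). Lymphatic endothelial-like cells had Scd2 at 99.9 and 169 CPM, a ratio of 1.69 (1.15 to 2.52), with Srebf1 at 2.54 (0.92 to 8.07), Ebp at 1.42 (0.83 to 2.47) and, lowest, Hmgcs1 at 0.88 (0.39 to 1.96). Endocardial-like cells had Hmgcs1 at 1.79 (0.70 to 4.92), Stard4 at 1.43 (0.70 to 2.98) and Srebf1 at 1.25 (0.47 to 3.41), with Ebp lowest at 0.81 (0.38 to 1.68), and all 4 intervals include 1. Cycling endothelial-like cells had Acaca at 1.91 (0.93 to 3.83), Fasn at 1.80 (0.65 to 4.70) and Msmo1 at 1.58 (0.87 to 2.80), with Acat2 lowest at 0.38 (0.07 to 1.27), and these intervals include 1 as well. The intervals of the endocardial-like, lymphatic endothelial-like and cycling endothelial-like sums lie below the fibroblast-like ratio of 1.61. So does the interval for barcodes with both endothelial and mural markers. The interval for pericyte-like and smooth muscle-like cells together includes 1.61.

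Other genes of lipid metabolism in fibroblast-like cells were read from lists that were also drawn up with earlier results known. Since 0.603% of all genes passing the filter were 1.5-fold higher and 0.904% lower, a count of 0 in lists this short is near the background and sets none of them apart. Of 9 further genes of sterol and isoprenoid synthesis 8 passed the filter, 0 were 1.5-fold higher or lower, and their median log2 ratio was 0.10. Ggps1, which diverts farnesyl diphosphate to geranylgeranyl diphosphate, stood at 64.2 and 66.7 CPM, and Lbr, a lamin receptor with sterol reductase activity, at 25.8 and 32.2 CPM. Of 8 genes of SREBP processing 7 passed, with 0 past 1.5-fold and a median of 0.06: Scap stood at 23.3 and 26.8 CPM, Mbtps1 at 89.9 and 94.0 CPM and Insig2, the partner of Insig1, at 94.7 and 105 CPM. Of 8 efflux and liver X receptor target genes 7 passed, with 0 past 1.5-fold and a median of 0.01. The genes of this list did not go one way, and 4 of the 7 had a log2 ratio above 0. Abca1, the exporter of cholesterol to lipoproteins, was lower, at 69.2 and 55.6 CPM, a ratio of 0.80 (0.72 to 0.89). Lpcat3 was higher, with a ratio of 1.36 (1.14 to 1.63), and Apoe slightly higher, with a ratio of 1.06 (1.04 to 1.07). Of 14 further genes of fatty acid and lipid synthesis 9 passed, with 0 past 1.5-fold and a median of 0.11. Acsl3, an acyl-CoA synthetase, stood at 17.1 and 27.2 CPM, a ratio of 1.59 (1.33 to 1.91), while Me1, which supplies NADPH, stood at 35.2 and 38.9 CPM.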

How the data were processed

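Single cells were measured with 10x 3′ chemistry, and the authors deposited UMI counts per gene and barcode for each library, made with Cell Ranger 6.0.2 per the file headers. The submitters' processing notes name Cell Ranger, Seurat and the build GRCm38 (mm10). The sources used here do not give the annotation or each tool's part. Barcodes were kept with at most 10% UMIs from 13 mitochondrial genes, at least 500 genes and no Scrublet doublet call (77 of 5336 scored barcodes in db/+ and 49 of 4538 in db/db and salt). A class was given where at least 50% of its markers and under 50% of every other class's were detected. This placed 4531 and 3821 barcodes and left 342 and 278 unplaced. Subsets needed 2 markers and a marker level 1.5 times that of the next subset, and a cell within 1.25 times of that limit was called near it. UMIs were summed per class and library. Intervals are exact Poisson for levels, exact conditional binomial for ratios and exact binomial (Clopper-Pearson) for shares, at 95%. With 1 library per group no test between conditions was possible and no p-value is given. Genes were counted as measured from a mean of 10 CPM, and differences were counted at 1.5-fold on the log2(CPM + 10) scale.

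The members and all lists were chosen with earlier results of these data known. All 28 members are described in both main classes. In smaller classes and subsets the members with the highest 3 ratios and the lowest, among those with at least 20 UMIs, were named. Other members named there were chosen after their values were seen. Genes of sterol uptake and transport are not reported here. Alternatives were TMM scaling (edgeR 4.0.16 in R 4.3.3), other filters, pseudocounts and class rules, Leiden clusters, and thinning to 1500 UMIs. Python 3.11.15 with numpy 2.4.6, scipy 1.17.1, pandas 2.3.3 and scanpy 1.11.5 was used. The counting code was tested on simulated data.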

Additional observations from a re-analysis of the deposited data

How the results depend on the processing

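The log2 ratio of the summed members in fibroblast-like cells, 0.69, was 0.73 in cells thinned to 1500 UMIs, 0.60 in cells with no endothelial marker UMI, 0.91 in the shallowest and 0.62 in the deepest cells. The count of 12 members at least 1.5-fold higher was 1 with a pseudocount of 50 CPM, which shrinks all ratios and gave a median of 0.25, and 3 where a mean of 50 CPM was required, which leaves fewer genes. The endothelial-like sum, 0.16, was 0.083 under TMM scaling and 0.095 in cells with no fibroblast marker UMI. The endothelial-like count of 1 was 0 under TMM scaling, with up to 20% mitochondrial UMIs, a stricter class margin, no adipocyte, cardiomyocyte or leukocyte marker UMI, no fibroblast marker UMI, the shallowest cells, a pseudocount of 50 CPM and a mean of 50 CPM. Over all 28 members, the number with a positive log2 ratio in fibroblast-like cells was 27, and 23 with no endothelial marker UMI, 25 after thinning and 26 or 27 under each other setting run. In endothelial-like cells it was 23, and 17 both with no fibroblast marker UMI and at middle depth, 19 under TMM scaling, after thinning and in the shallowest cells, and 22 to 24 under each other setting run. Among members whose counting interval excluded a log2 ratio of 0, signs turned for Pmvk (-0.16) and Nsdhl (-0.057) in fibroblast-like cells with no endothelial marker UMI and for Nsdhl in the deepest cells (-0.085). In endothelial-like cells they turned for Hmgcs1 (-0.048) and Srebf1 (-0.024) after thinning, for Hmgcs1 (-0.0020) without fibroblast marker UMIs and for Srebf1 (-0.14) in the shallowest cells. Except for the pseudocount and the stricter mean, whose effect is arithmetic, the cause was not tested. The part of the loss of counts in subsets of cells was not tested either. The settings by foreign marker UMI of the other main class and by depth were chosen after seeing the data. No paired analysis was possible because each group is 1 library, and for the same reason no replicate could be left out. Low members, such as Tm7sf2, Lss and Acat2, are limited by depth.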
